A study of Mus musculus with 22 samples.

Results

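The 10 genes described here are read as marks of macrophage activation in tumors: *Arg1*, *Nos2*, *Mrc1*, *Cd163*, *Folr2*, *Chil3*, *Retnla*, *Il10*, *Gpnmb* and *Trem2*. They were found by symbol through their Ensembl identifiers, each at 1 gene, among the 41388 genes of the deposited count tables, and all 10 passed the filter on low counts that left 15043 genes for testing. Stromal cells of MMTV-BO1 breast tumors from C57BL/6 mice were sorted by flow cytometry for TdTomato and for CD45, the pan-leukocyte surface protein, and RNA was sequenced from 22 libraries. The sort gave 4 populations: double positive (TdTOSX+;CD45+, DP), CD45 single positive (TdTOSX-;CD45+, CD45SP), TdT single positive (TdTOSX+;CD45-, TdTSP) and double negative (TdTOSX-;CD45-, DN). The 11 wild type (WT) libraries came from Osx-cre;Ai9 mice, in which Cre driven by the promoter of the osteoblast transcription factor Osterix switches on TdTomato for good in a cell and its progeny. The other 11 libraries came from Cdh2-cKO;Ai9 mice, which carry the same Cre and reporter, so that N-cadherin (*Cdh2*) was meant to be deleted in the cells that had expressed the Cre. Each genotype has 2 TdTSP libraries and 3 of each other population, all from mice at postnatal day 56. The labels call the tumors orthotopic, whereas the design text of the deposit calls them subcutaneous. Of the mice inoculated, 4 were WT and 6 Cdh2-cKO, and preparations were chosen for RNA integrity. No label ties a library to an animal, so the spread between libraries of a group may be in part technical.

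Macrophages take up different states according to the signals around them. IL-4 and IL-13 act through STAT6 to raise arginase, mannose receptor, chitinase-like and resistin-like proteins, whereas interferon-gamma and bacterial products raise the inducible nitric oxide synthase. Arginase 1 and nitric oxide synthase 2 use the same substrate, arginine, and their balance is a common readout of the state of tumor macrophages. Other members mark long-lived tissue macrophages (*Cd163*, *Folr2*), lipid handling and lysosomal activity (*Trem2*, *Gpnmb*) or the dampening of inflammation (*Il10*).

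Between 16594228 and 26784003 reads were counted on genes per library. Values are given as normalized CPM, which are CPM on library sizes scaled by TMM factors. A signal of 3 counts corresponds to between 0.103 and 0.201 normalized CPM, counting error only. *Ptprc*, which encodes CD45, lay between 472 and 1820 in the 12 CD45+ libraries and between 2.45 and 337 in the 10 CD45- libraries. The summed level of 12 macrophage identity genes (among them *Adgre1*, *Csf1r* and *C1qa*) was between 31300 and 55800 in 11 CD45+ libraries and 8150 in WT CD45SP replicate 2. That library stands apart: its 6 B cell, 7 T cell and 6 NK cell markers summed to 3810, 2460 and 858, against at most 27.4, 550 and 83.7 in the other CD45+ libraries. WT DN replicate 3 carried macrophage identity genes at 20400, more than any other CD45- library. *Cdh2* was not lower in the CD45- libraries labelled Cdh2-cKO, with 12.5 to 18.4, than in the WT ones, with 4.52 to 9.14, so each genotype below is that of the label. Y-linked transcripts (*Ddx3y* of at least 10) were present in 8 of the 22 libraries, 4 of them among the 12 CD45+, with *Ddx3y* at no more than 0.736 in the rest, and 3 libraries, all CD45-, held both *Xist* and Y-linked transcripts. The labels give no sex. Libraries of one genotype with the same replicate number were alike in Y-linked transcripts in 24 of 30 pairs, and the 6 unlike pairs were those with a CD45SP replicate 2. WT CD45SP replicate 2 held these transcripts while the other WT libraries numbered 2 lacked them, and Cdh2-cKO CD45SP replicate 2 lacked them while the others of its number held them. Several results that turn on these 2 libraries are also given without them.

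Of the 10 members, 7 have promoter sequences in the RefSeq table of build GRCm38.p6, with 8 starts among them. The 250 bases before the start are shown for *Retnla*, *Chil3* and *Mrc1*. *Retnla* and *Chil3* varied widely between CD45+ libraries and are textbook targets of IL-4, while *Mrc1* was abundant and varied less than either. Capitals mark matches on either strand to 6 motifs: STAT6 (TTCNNNNGAA), GAS (TTCNNNGAA), E-box (CACGTG), M-box (CATGTG), NF-kB (GGGANNNNCC) and PU.1 (GAGGAA).
*Retnla*, chr16:48842359-48842608, plus strand: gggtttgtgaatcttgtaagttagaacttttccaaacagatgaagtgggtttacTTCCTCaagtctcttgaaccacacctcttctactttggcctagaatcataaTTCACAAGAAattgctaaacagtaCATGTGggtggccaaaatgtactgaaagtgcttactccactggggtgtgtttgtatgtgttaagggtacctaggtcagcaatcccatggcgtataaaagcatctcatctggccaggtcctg
*Chil3*, chr3:106167565-106167814, minus strand: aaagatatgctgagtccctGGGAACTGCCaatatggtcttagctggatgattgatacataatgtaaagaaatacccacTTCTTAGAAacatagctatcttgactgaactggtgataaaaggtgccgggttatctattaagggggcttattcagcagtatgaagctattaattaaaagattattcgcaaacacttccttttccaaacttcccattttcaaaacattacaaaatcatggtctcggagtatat
*Mrc1*, chr2:14229164-14229413, plus strand: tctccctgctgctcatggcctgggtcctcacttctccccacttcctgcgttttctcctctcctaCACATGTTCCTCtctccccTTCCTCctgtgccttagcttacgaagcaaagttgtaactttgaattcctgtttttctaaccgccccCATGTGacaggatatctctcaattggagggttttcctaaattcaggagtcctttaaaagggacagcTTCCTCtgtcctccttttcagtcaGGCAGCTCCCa
The *Retnla* window held the only STAT6 match among the 8 member windows, and 5.85% of all 32851 windows hold one. The *Chil3* window held the only GAS match, found in 7.02% of all windows. *Mrc1* had 3 PU.1 matches, 1 of them abutting an M-box match, and PU.1 and M-box matches stand in 23.3% and 12.3% of all windows. NF-kB letters stood in 3 of the 8 member windows and in 17.6% of all, and the E-box in none of the 8 and in 6.02% of all. These letters describe the windows and are not evidence of binding.

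Levels of different genes were compared per kilobase of exon, as normalized CPM divided by the exonic length that the authors' RPKM used, which joins all annotated isoforms. On this scale *Arg1* had by far the highest median over the 12 CD45+ libraries, 2560, and its range of 1960 to 4900 did not overlap with that of any other member. *Folr2* (median 337), *Chil3* (277), *Mrc1* (197) and *Trem2* (130) followed, and each of them overlapped with its neighbours in this order. The order depends on the joined lengths, which is 4946 bases for *Trem2*. Before division by length the median of *Trem2*, 643, was above those of *Chil3* (452) and *Folr2* (364). *Retnla* (27.4), *Cd163* (11.6), *Gpnmb* (8.46), *Il10* (6.65) and *Nos2* (2.91) were lowest, again with neighbours that overlapped. The ratio of *Arg1* to *Nos2* per kilobase was between 415 and 3090 in the DP libraries and between 108 and 4230 in the CD45SP libraries, so the populations overlapped, and the lowest ratio was that of WT CD45SP replicate 2.

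The members also differed in how even they were across the 12 CD45+ libraries. The highest *Arg1* library was 2.5 times the lowest and the highest *Mrc1* library 2.76 times, whereas the ratio was 24.5 for *Nos2* and 61 for *Retnla*. The SD of log2 CPM was 0.408 for *Arg1*, 0.435 for *Mrc1* and 1.63 for *Retnla*, beside a median of 0.384 over the 12241 genes that averaged at least 1 CPM in these libraries. Without WT CD45SP replicate 2 the ratio fell to 14.6 for *Retnla*, to 14.1 for *Nos2*, from 10.2 to 3.85 for *Folr2* and from 5.51 to 1.72 for *Trem2*, which made *Trem2* the most even of the 10.

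**Figure D1:**
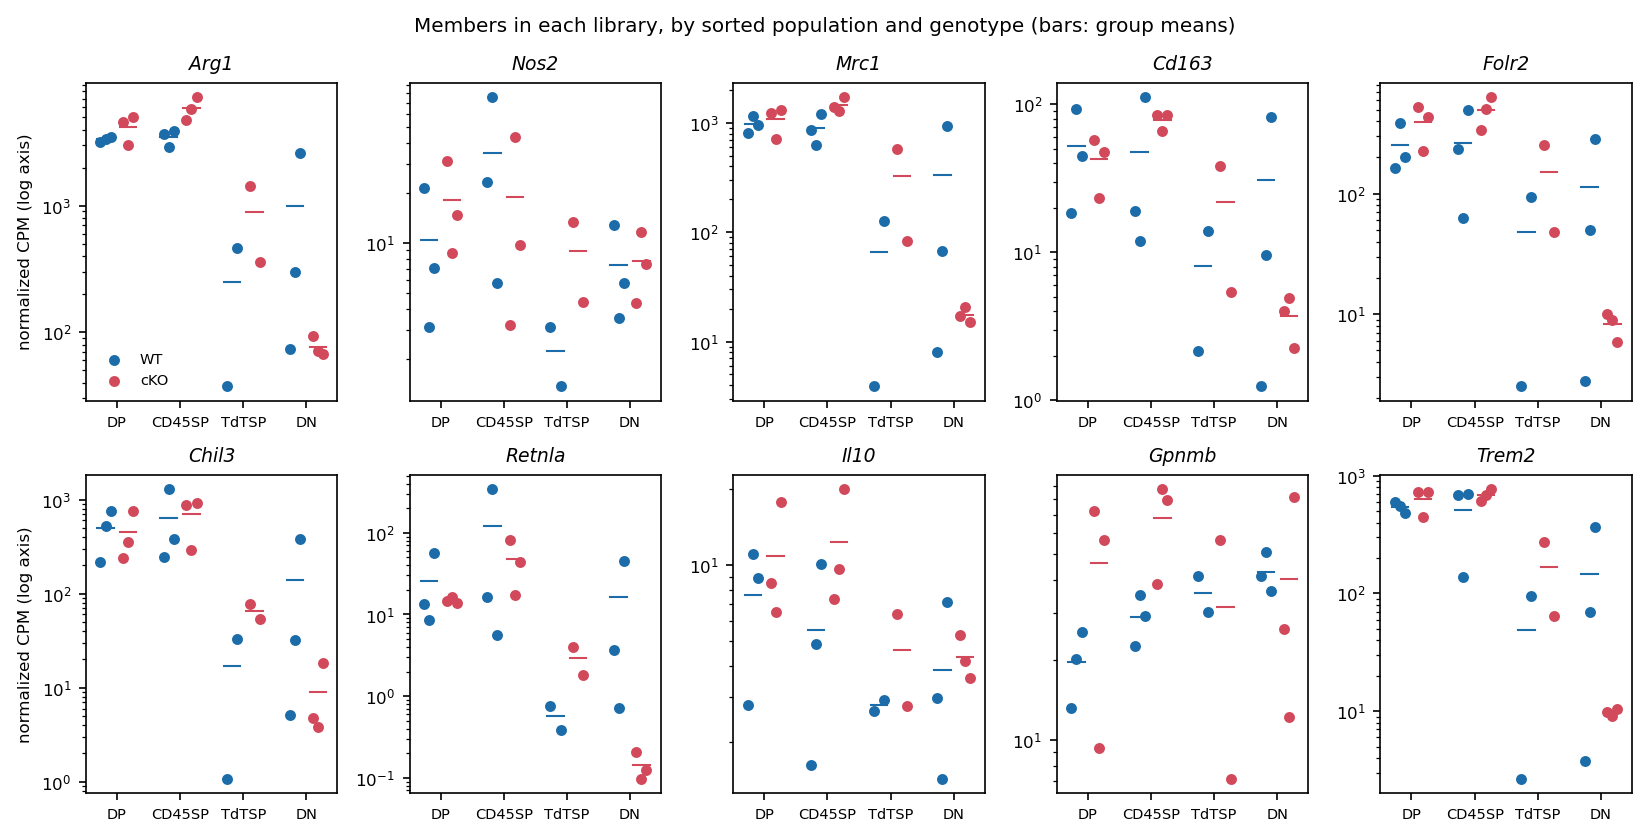
Normalized CPM (log axis) of the 10 members in every library, by population (DP, CD45SP, TdTSP, DN) and labelled genotype (blue WT, red Cdh2-cKO); each point is a library and each short bar a group mean. *Arg1* lies between 2900 and 7230 in all CD45+ libraries, while *Gpnmb* reaches like levels with and without CD45.

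The first question was whether CD45+ cells with a history of Osterix-driven Cre differ in activation state from the other sorted CD45+ cells. No member was called between DP and CD45SP cells over both genotypes (edgeR's quasi-likelihood test, 0 of 10 at an adjusted p of at most 0.05). Across all genes 1 of 15043 was called, 0.00665%, and 603 had an unadjusted p under 0.05, among them *Retnla*. The voom and DESeq2 tests called 0 of the members as well. Since bulk libraries mix cell types, fewer cells of a type and less RNA per cell cannot be told apart. The 10 log2 fold changes (DP minus CD45SP) ran from -1.94 to 0.14 with a median of -0.32, beside a median of -0.06 over all genes tested, and 9 were negative.

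Among the arginine enzymes, *Arg1* (chr10:24915208-24927470), which turns arginine into ornithine and urea, was at 3190, 3380 and 3490 in WT DP and at 3690, 2900 and 3870 in WT CD45SP libraries. The Cdh2-cKO libraries were at 4570, 3000 and 5040 in DP and at 4750, 5830 and 7230 in CD45SP cells. Both populations overlapped in each genotype, and the log2 fold change was -0.28 ± 0.63 (SE; 95% interval -1.61 to 1.06; edgeR, adjusted p = 1). A fit of the 12 CD45+ libraries alone, which does not share its estimate of spread with the uneven CD45- libraries, gave -0.26 ± 0.19 with an interval of -0.67 to 0.16. *Nos2* (chr11:78920787-78960254), which makes nitric oxide from arginine, was at 21.3, 3.1 and 7.02 in WT DP and at 23.3, 76 and 5.71 in WT CD45SP libraries. Among Cdh2-cKO libraries it took 31.3, 8.64 and 14.7 in DP and at 3.19, 43.8 and 9.73 in CD45SP cells. Single libraries of either population were thus high or low, and the difference of -0.90 ± 0.68 (adjusted p = 1) fell to -0.25 ± 0.68 without WT CD45SP replicate 2 and WT DN replicate 3. Without both CD45SP replicates 2 it turned to 0.51 ± 0.63 (adjusted p = 1).

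Of the receptors, *Mrc1* (chr2:14229414-14332057), the mannose receptor CD206, took 811, 1150 and 951 in WT DP and 859, 627 and 1200 in WT CD45SP libraries. The Cdh2-cKO libraries held 1230, 718 and 1320 in DP and 1400, 1290 and 1730 in CD45SP cells. The log2 fold change of *Mrc1* was -0.16 ± 0.79, with an interval of -1.83 to 1.51 in the fit of all 22 libraries. In the fit of the 12 CD45+ libraries the interval was -0.61 to 0.33. Only in that second fit was *Mrc1* among the members with the narrowest bounds on a difference. *Cd163* (chr6:124304651-124330527), the scavenger receptor for haemoglobin and haptoglobin, was at 18.4, 93 and 44.7 in WT DP and at 19.1, 12 and 112 in WT CD45SP libraries. Cdh2-cKO libraries gave 57.3, 23.3 and 47.3 in DP and at 84.6, 65.6 and 84 in CD45SP cells. The 3 Cdh2-cKO DP libraries thus lay below the 3 CD45SP libraries, while the WT libraries overlapped widely. *Folr2* (chr7:101839990-101845331), which binds folate, was at 165, 389 and 201 in WT DP, 234, 62.7 and 492 in WT CD45SP, 521, 227 and 432 in Cdh2-cKO DP and 338, 509 and 637 in Cdh2-cKO CD45SP libraries. Over both genotypes the differences were -0.37 ± 0.78 for *Cd163* and -0.20 ± 0.81 for *Folr2* (adjusted p = 1 for both), and without WT CD45SP replicate 3 both became positive, 0.43 and 0.22.

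The secreted proteins come next. *Chil3* (chr3:106147554-106167564), a chitinase-like lectin also called Ym1, was at 217, 525 and 750 in WT DP and at 243, 1280 and 379 in WT CD45SP libraries. In the Cdh2-cKO libraries it was at 239, 350 and 755 in DP and at 869, 290 and 928 in CD45SP cells. In each population and genotype some libraries thus held several times more than others, and the log2 fold change was -0.49 ± 0.83. *Retnla* (chr16:48842552-48844461), the resistin-like protein RELM-alpha, was at 13.3, 8.66 and 55.9 in WT DP and at 16.3, 339 and 5.55 in WT CD45SP libraries. In the Cdh2-cKO libraries it was at 14.5, 16.5 and 13.7 in DP and at 81.1, 17.5 and 44.3 in CD45SP cells. It had the largest difference of the 10, -1.94 ± 0.91 (unadjusted p = 0.0467, adjusted p = 1), but without WT CD45SP replicate 2 and WT DN replicate 3 it was -0.22 ± 0.53. That value averages 1.27 ± 0.82 in WT and -1.70 ± 0.72 in Cdh2-cKO libraries (unadjusted p = 0.143 and 0.0315, adjusted p = 1 and 0.615). In that library *Retnla* went with *Il4* at 28.9, *Ifng* at 39 and the lymphocyte markers given above, whereas *Il4* did not exceed 1.68 elsewhere. The part of those cells in the level of *Retnla* was not tested.

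*Il10* (chr1:131019845-131024974), the cytokine that restrains macrophage activation, was low throughout, at 2.79, 11.1 and 8.92 in WT DP and at 1.62, 4.87 and 10.1 in WT CD45SP libraries. In the Cdh2-cKO libraries it was at 8.5, 6.5 and 17.7 in DP and at 7.36, 9.63 and 19.9 in CD45SP cells. Its difference of 0.14 ± 0.47 was the only positive one and turned to -0.23 when library sizes were taken from the macrophage identity genes. Of the lipid-associated pair, *Trem2* (chr17:48346401-48354147), a lipid-sensing receptor that signals through *Tyrobp*, was at 602, 554 and 480 in WT DP and at 681, 139 and 701 in WT CD45SP libraries. In the Cdh2-cKO libraries it was at 720, 444 and 722 in DP and at 606, 682 and 763 in CD45SP cells. Apart from WT CD45SP replicate 2 the libraries thus lay between 444 and 763, and the difference was -0.01 ± 0.76 (interval -0.71 to 0.72 in the fit of the 12 CD45+ libraries). *Gpnmb* (chr6:49036518-49058182), a transmembrane glycoprotein of lysosome-rich cells, was at 13.2, 20.2 and 25.4 in WT DP, 22.6, 34.9 and 29.3 in WT CD45SP, 72.7, 9.37 and 56.2 in Cdh2-cKO DP and 38.6, 87.2 and 79.5 in Cdh2-cKO CD45SP libraries, a difference of -0.57 ± 0.51 (adjusted p = 1).

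**Figure D2:**
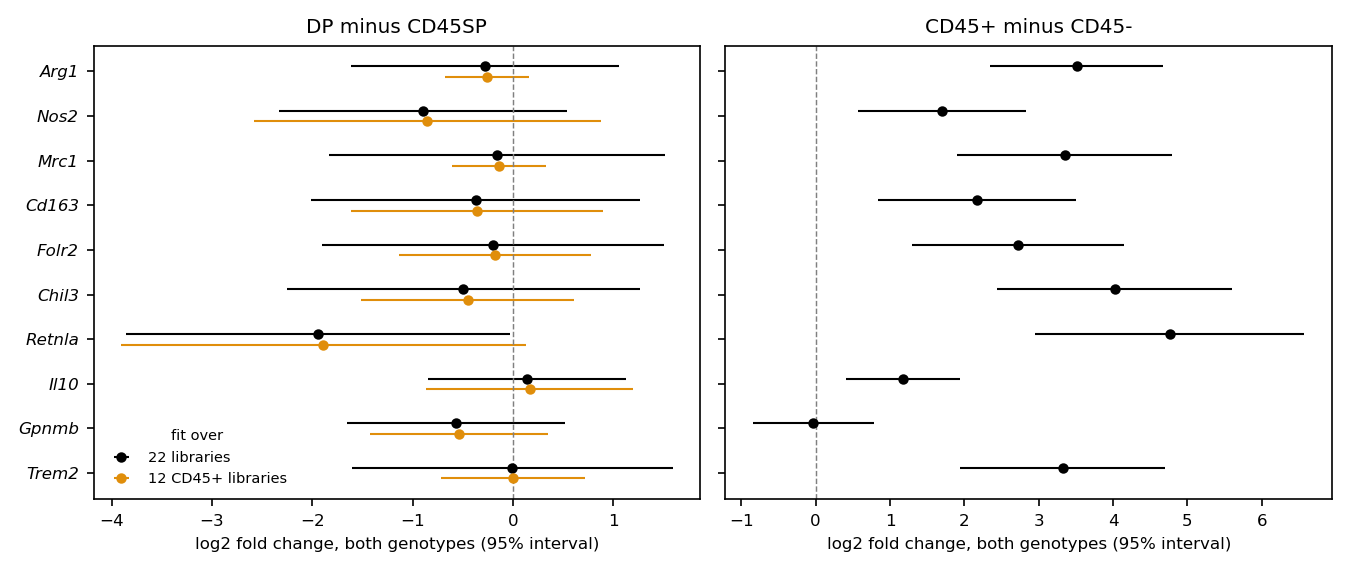
Log2 fold changes of the members over both genotypes, with 95% intervals, for DP minus CD45SP (left) and CD45+ minus CD45- (right); black points are from the fit of all 22 libraries and orange points from the fit of the 12 CD45+ libraries. On the left 9 of the 10 black intervals include 0, that of *Retnla* ending at -0.03, and on the right all but *Gpnmb* lie above 0.

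Taken by genotype, DP and CD45SP cells again gave 0 of 10 members in WT (edgeR, 0% of all genes called, 655 with an unadjusted p under 0.05) and 0 of 10 in Cdh2-cKO libraries (0%, 725 genes). For a change of the DP minus CD45SP difference between genotypes no member was called (edgeR, 0 of 10, SE from 0.94 to 1.75; 0% of all genes, 658 with an unadjusted p under 0.05). DESeq2 called 0 members in each of these comparisons and 5, 2 and 0 of all genes. In Cdh2-cKO libraries all 10 log2 fold changes were negative, from -1.68 to -0.05, and in WT libraries 6 were. The Cdh2-cKO values ran from -2.075 to 1.496, with 9 negative, without both CD45SP replicates 2. *Cd163* and *Retnla* were the members whose Cdh2-cKO DP and CD45SP libraries did not overlap, both lower in DP, as were 8.85% of all genes. Their log2 fold changes there were -0.87 ± 1.10 and -1.68 ± 1.27 (adjusted p = 1 and 0.979). In WT libraries *Retnla* had a log2 fold change of -2.21 ± 1.29, which became 1.25 without CD45SP replicate 2. *Nos2* had the largest difference between genotypes, 1.69 ± 1.36 (adjusted p = 0.955), with -1.74 ± 0.98 in WT libraries. Without WT CD45SP replicate 2 and WT DN replicate 3 it was 0.42 ± 1.36, and *Retnla* then had the largest, -2.97 ± 1.10 (unadjusted p = 0.0163, adjusted p = 0.907), in place of 0.53 ± 1.75 over all libraries. Without both CD45SP replicates 2 the values were 1.96 ± 1.25 for *Nos2* and -3.33 ± 1.60 for *Retnla* (adjusted p = 0.92 and 0.912).

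The signals and partners around these genes were taken from gene lists. In DP against CD45SP cells 0 genes were called in any of them: 17 tested of the IL-4 and STAT6 axis, 17 of the interferon-gamma and LPS axis, 10 of arginine and polyamine metabolism, 9 of IL-10 receptor and signal, 17 lipid-associated partners of *Trem2* and *Gpnmb*, and 11 resident-type macrophage genes. Their median log2 fold changes lay between -0.12 and 0.08, beside -0.06 over all genes. In the IL-4 list the largest differences were those of *Il4* (-2.14 ± 0.95) and of *Pdcd1lg2* (-0.72 ± 0.83), the ligand PD-L2. In the interferon list they were those of *Ifng* (-2.52 ± 1.39) and of the chemokine *Cxcl9* (-0.83 ± 0.97). The values of *Il4* and *Ifng* follow WT CD45SP replicate 2, since *Ifng* was at 39 in that library and at most 3.38 in the other CD45+ libraries. *Nos3* (0.59 ± 0.46), the endothelial nitric oxide synthase, and *Sms* (-0.49 ± 0.30), which makes spermine, had the largest values among the arginine and polyamine genes. *Jak1* (-0.37 ± 0.24) and *Sbno2* (0.36 ± 0.21) had them in the IL-10 list, *Fabp4* (-0.76 ± 0.53) and *Axl* (0.42 ± 0.27) among the lipid-associated partners, and *Igf1* (-0.53 ± 0.37) and *Vsig4* (-0.50 ± 1.13) among the resident-type genes. The 12 macrophage identity genes themselves had a median of 0.14, with 0 called and the largest values for the receptors *Csf1r* (0.38 ± 0.58) and *Mertk* (0.29 ± 0.45). Of the paralogs 10 were tested and 0 called, with *Retnlg* at -2.53 ± 1.23 and *Mrc2* at -1.46 ± 0.54.

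Over the 12 CD45+ libraries the members fell into groups by how their log2 CPM ran together. This is given as a description, since libraries share genotypes and may share tumors. *Arg1*, *Mrc1*, *Folr2* and *Cd163* ran together, with Pearson's r of 0.89 for *Arg1* and *Mrc1*, 0.89 for *Mrc1* and *Folr2*, 0.85 for *Cd163* and *Folr2*, and a lower 0.61 for *Arg1* and *Cd163* (0.51 over the 11 libraries without WT CD45SP replicate 2). The borders of this group were not sharp, since r was 0.84 for *Arg1* and *Gpnmb*, 0.87 for *Folr2* and *Trem2* and 0.72 for *Cd163* and *Il10* (0.92, 0.69 and 0.75 over the 11). *Chil3* and *Retnla* formed a second pair (r = 0.72, and 0.59 over the 11 libraries). *Nos2* had r of -0.02 with *Arg1* and between -0.63 (*Cd163*) and 0.30 (*Gpnmb*) with the other members, the first being -0.46 over the 11 libraries, where the lowest was -0.65 with *Chil3*. *Retnla* and *Trem2* had r of -0.73 over 12 and -0.18 over 11 libraries, so their opposition rested on WT CD45SP replicate 2.

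**Figure D3:**
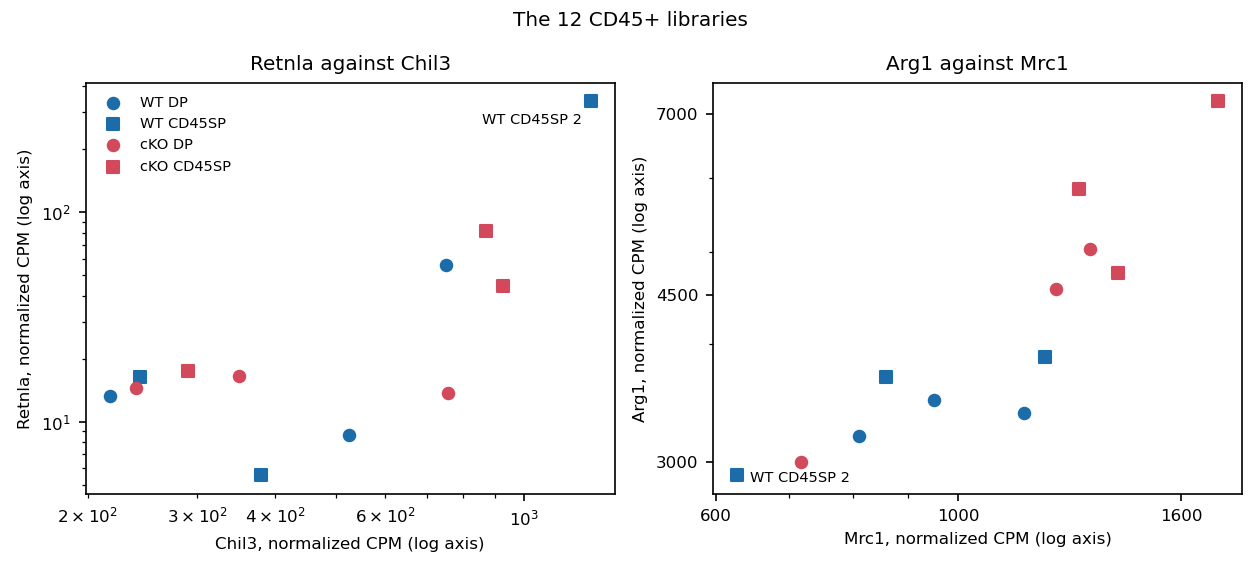
Each of the 12 CD45+ libraries by *Chil3* and *Retnla* (left) and by *Mrc1* and *Arg1* (right), in normalized CPM on log axes; circles are DP and squares CD45SP, blue WT and red Cdh2-cKO. WT CD45SP replicate 2 is highest for *Chil3* (1280) and *Retnla* (339) and lowest for *Mrc1* (627) and *Arg1* (2900).

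Outside the member list, the genes most like each member over these 12 libraries were picked by the highest r. For *Arg1* they were the fatty acid carrier *Fabp5* (0.969), the protease gene *Ctsl* (0.954) and *Akr1b8* (0.924). For *Mrc1* they were the chemokine *Ccl9* (0.967), *Wfdc17* (0.948) and *Angpt2* (0.940), and for *Cd163* they were *Ctla2b* (0.962) and the chemokines *Ccl2* (0.959) and *Ccl12* (0.959). *Folr2* was most like *Fcgrt* (0.971), *Etv1* (0.970) and *Cd93* (0.966). *Trem2* was most like *Tspan4* (0.981), *Cspg4* (0.976) and *Fcrls* (0.975), the last falling to 0.793 over the 11 libraries. *Gpnmb* was most like the lysosomal hydrolases *Gla* (0.934) and *Hyal1* (0.933) and *Cnrip1* (0.923). The nearest genes were *Nub1* (0.947), *Rnf24* (0.944) and *Chst11* (0.938) for *Nos2*, and *3110009E18Rik* (0.951), *Ccdc173* (0.940) and *Hist1h4c* (0.923) for *Chil3*. *Retnla* was nearest to *Il24* (0.926), *Rnu3b3* (0.926) and *Gm26771* (0.919), which fell to between 0.831 and 0.848 over 11 libraries, and *Il10* to *Gm8818* (0.954), *Gm16217* (0.913) and *Gm14636* (0.904).

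The second question was whether the members differ between genotypes within a population. No member was called by edgeR in DP (0 of 10; 0% of all genes, 502 with an unadjusted p under 0.05), CD45SP (0 of 10; 0%, 1471 genes), TdTSP (0 of 10; 0.00665%, 1557 genes) or DN cells (0 of 10; 0%, 1443 genes). DESeq2 called 1, 26, 137 and 522 of all genes in these populations, and members in DN cells only, described further on. In CD45SP cells *Arg1*, *Mrc1* and *Gpnmb* had all 3 Cdh2-cKO libraries above all 3 WT libraries, as did 4.15% of all genes. Their log2 fold changes (Cdh2-cKO minus WT) were 0.77 ± 0.90 for *Arg1*, 0.72 ± 1.13 for *Mrc1* and 1.24 ± 0.74 for *Gpnmb*, with adjusted p of 0.802, 0.858 and 0.590. Over all libraries the 10 member values in CD45SP cells ran from -1.335 to 1.241, and from -1.165 to 2.524 without both CD45SP replicates 2. No member was called in either fit. In the edgeR fit of the 12 CD45+ libraries alone 0 of 12931 genes were called in CD45SP cells. Among the members the smallest unadjusted p there was 0.0132 and the smallest adjusted p 0.509. When library sizes were taken from the macrophage identity genes, the log2 fold changes of *Arg1*, *Mrc1* and *Gpnmb* became -0.35, -0.25 and -0.18. WT CD45SP replicate 2, poor in those genes, was the highest CD45SP library for all 3 members on that scale. Per 1000 counts of those genes *Arg1* was at 94.8, 355 and 74.5 in WT and at 124, 157 and 130 in Cdh2-cKO libraries. The other WT CD45SP libraries lay below each Cdh2-cKO one for all 3 members. No fit on that scale left WT CD45SP replicate 2 out. All 3 Cdh2-cKO CD45SP libraries lacked Y-linked transcripts and 2 of the 3 WT ones had them, and with a term for these transcripts the values of *Arg1* and *Mrc1* were -0.12 and -0.30. In DP cells *Gpnmb* likewise had the largest value, 1.23 ± 0.74 (adjusted p = 1), with 1 Cdh2-cKO library, at 9.37, below all WT libraries.

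The 4 CD45+ libraries with Y-linked transcripts (WT DP replicate 1, WT CD45SP replicates 1 and 2, Cdh2-cKO DP replicate 2) had lower *Cd163*, *Mrc1* and *Il10* than each of the 8 without them. *Cd163* was at 18.4, 19.1, 12 and 23.3 in the 4 and between 44.7 and 112 in the 8. *Mrc1* was at 811, 859, 627 and 718 in the 4 and between 951 and 1730 in the 8, and *Il10* at 2.79, 1.62, 4.87 and 6.5 against 7.36 to 19.9. These are 3 of the 10 members, and 1.22% of all genes were separated in the same direction. *Folr2* nearly did the same, at 165, 234, 62.7 and 227 against 201 to 637. The split was chosen after the values were seen, so no test is given, and 3 of the 4 libraries are WT.

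**Figure D4:**
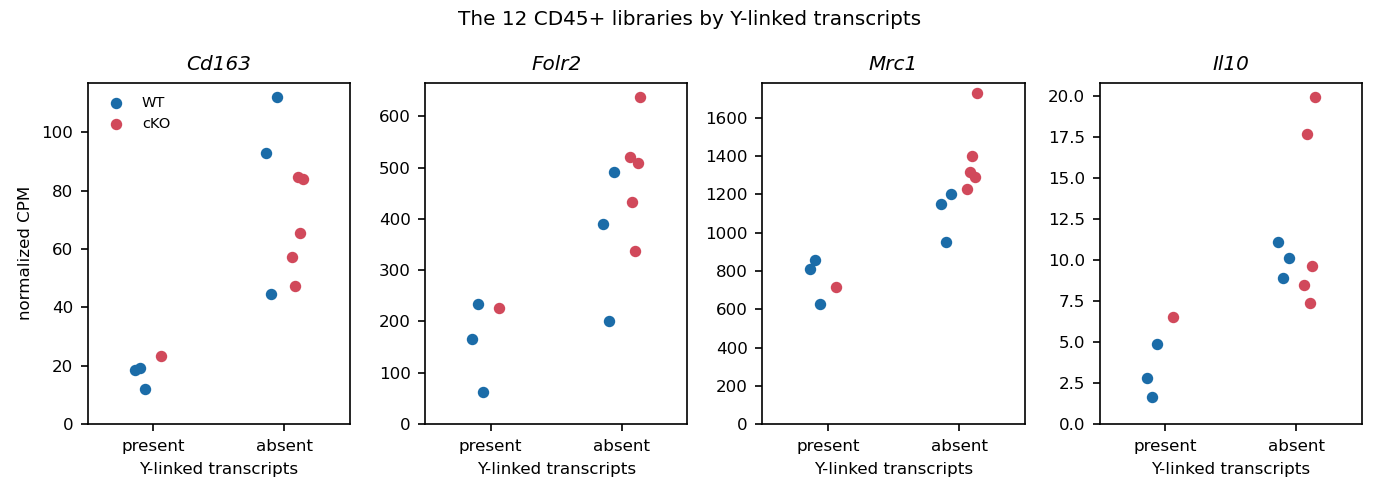
Normalized CPM of *Cd163*, *Folr2*, *Mrc1* and *Il10* in the 12 CD45+ libraries, by whether Y-linked transcripts were present (4 libraries) or absent (8); blue points are WT and red points Cdh2-cKO. *Cd163* does not exceed 23.3 where they are present and is at least 44.7 where they are absent.

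The third comparison set the CD45+ against the CD45- populations, which checks whether the members belong to leukocytes in these tumors. Of the 10, 9 were higher in CD45+ cells and *Gpnmb* was not called; of all genes 63.7% were called in either direction, 32.7% higher and 31.1% lower. The counts of lists given below for this comparison stand beside the same shares. The largest log2 fold changes (CD45+ minus CD45-) were those of *Retnla* (4.76 ± 0.86), *Chil3* (4.02 ± 0.75) and *Arg1* (3.51 ± 0.55), with adjusted p of 0.000133, 0.000178 and 3.38e-05. *Mrc1*, *Trem2* and *Folr2* rose by 3.35 ± 0.68, 3.32 ± 0.65 and 2.72 ± 0.67, and *Cd163* by 2.17 ± 0.63 (edgeR, adjusted p at most 0.00623). The smallest were *Nos2* at 1.69 ± 0.54 (adjusted p = 0.0108) and *Il10* at 1.17 ± 0.36 (adjusted p = 0.00933), and *Nos2* was not called by the voom test (adjusted p = 0.105) or without both CD45SP replicates 2 (0.99 ± 0.44, adjusted p = 0.0613). *Gpnmb* was at -0.03 ± 0.38, with an interval of -0.84 to 0.78, and was at 7.15 to 81.9 in CD45- and 9.37 to 87.2 in CD45+ libraries. Without WT CD45SP replicate 2 and WT DN replicate 3 *Arg1* rose by 4.08 ± 0.44 and *Mrc1* by 4.13 ± 0.58, and 9 of 10 were called again. *Retnla* gave 4, 2 and 3 counts in the Cdh2-cKO DN libraries, so that its fitted change depends on how such counts are treated.

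Without regard to genotype, *Arg1* was the only member whose CD45+ and CD45- libraries did not overlap, from 2900 to 7230 against 37.3 to 2600, where 3.7% of all genes were separated in this direction. The highest CD45- library was WT DN replicate 3 for *Arg1*, *Mrc1* (934), *Trem2* (366), *Folr2* (286), *Chil3* (382) and *Retnla* (44.9), followed for *Arg1* by Cdh2-cKO TdTSP replicate 1 (1440). Within the Cdh2-cKO libraries *Arg1*, *Mrc1*, *Chil3*, *Retnla*, *Il10* and *Trem2* were separated, as were 17.6% of all genes. All 12 macrophage identity genes were higher in CD45+ cells, with a median of 3.20. In the IL-4 list 12 of 17 tested genes rose and 0 fell, among them *Ccl17* (4.01 ± 0.62) and *Mgl2* (3.91 ± 0.67), a lectin of macrophages and dendritic cells. In the interferon list 12 of 17 rose, led by *Il1b* (4.06 ± 0.54), and *Il6* fell by 1.64. The arginine list split, with 3 of 10 higher, among them *Arg2* (3.48 ± 0.65) and the transporter *Slc7a2* (3.26 ± 0.48), and 2 lower. Of the lipid-associated partners 12 of 17 rose, *Tyrobp* by 3.41 ± 0.60 and *Apoe* by 3.10 ± 0.64, and 3 fell, *Fabp4* by 2.80. Of the IL-10 list 6 of 9 rose, *Il10ra* by 3.62 ± 0.64, and of the resident-type genes 8 of 11 rose and *Igf1* fell by 0.96. Of the paralogs 8 of 10 rose and *Mrc2*, a collagen receptor of fibroblasts, fell by 6.46.

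To set the members against the amount of macrophage RNA in a library, their counts were also divided by the counts of the 12 macrophage identity genes. Per 1000 such counts *Trem2* lay between 11.9 and 18.4 in CD45+ and between 10.8 and 19.4 in CD45- libraries. *Arg1* lay between 74.5 and 355 in CD45+ and between 60.3 and 214 in CD45- libraries, and *Mrc1* between 19.2 and 76.9 and between 14.2 and 45.8. Both CD45+ maxima are those of WT CD45SP replicate 2, and without it the highest were 157 for *Arg1* and 36.5 for *Mrc1*. *Gpnmb* had a median of 0.909 in CD45+ and of 14.3 in CD45- libraries, *Il10* of 0.228 and 2.82, and *Nos2* of 0.282 and 3.63. *Folr2* had medians of 8.71 and 12.2, and *Cd163* lay between 0.491 and 2.21 in CD45+ libraries with a median of 3.79 in CD45- libraries. These 5 of the 10 members thus had higher medians in the CD45- libraries on this scale. CD45- libraries held fibroblast markers at 4280 to 59800 summed CPM, against 62.2 to 216 in CD45+ libraries, and the part of those cells was not tested.

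**Figure D5:**
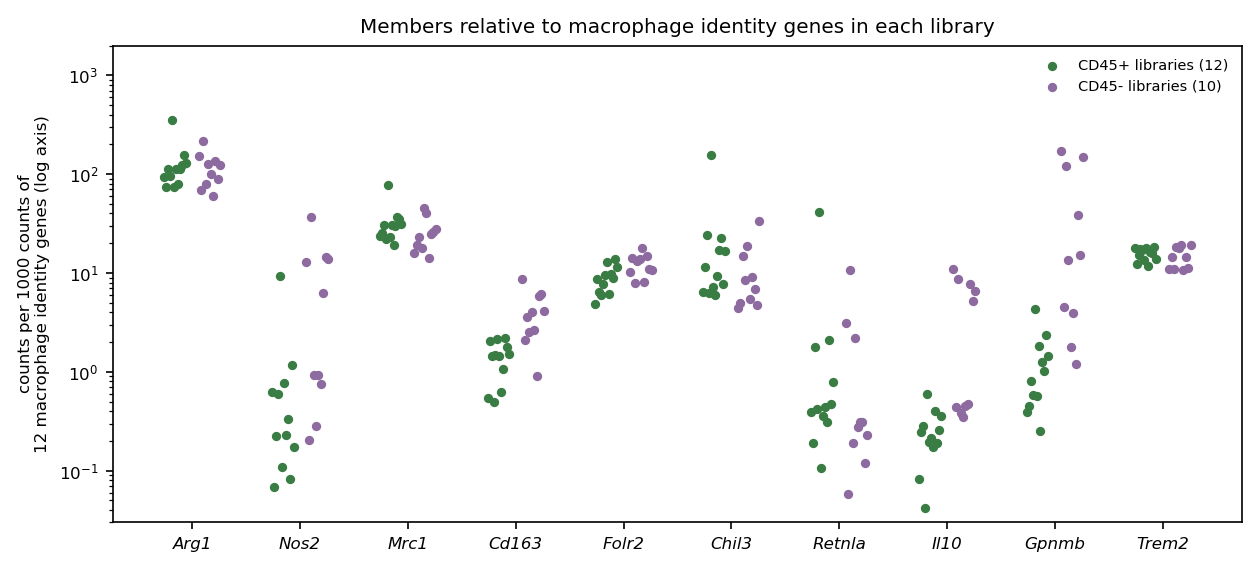
Counts of each member per 1000 counts of 12 macrophage identity genes (log axis) in the 12 CD45+ (green) and 10 CD45- libraries (purple). *Trem2*, *Arg1* and *Mrc1* cover like ranges in both, and *Gpnmb*, *Il10*, *Nos2*, *Cd163* and *Folr2* have higher medians in CD45- libraries.

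Within the CD45- cells 0 of 10 members were called between TdTSP and DN libraries, where 1.96% of all genes were called and 2854 had an unadjusted p under 0.05 (edgeR). DESeq2 and voom called 0 of the 10 as well. *Arg1* was at 37.3 and 464 in WT TdTSP, 1440 and 356 in Cdh2-cKO TdTSP, 73.9, 301 and 2600 in WT DN and 93, 71.2 and 67.1 in Cdh2-cKO DN libraries. The values followed macrophage identity genes, which summed to between 244 and 14400 in TdTSP and between 345 and 20400 in DN libraries. The log2 fold change (TdTSP minus DN) of *Arg1* was 0.78 ± 0.70 and that of *Mrc1* 0.93 ± 0.88 (adjusted p = 0.562 and 0.583). Without WT CD45SP replicate 2 and WT DN replicate 3, edgeR called 2 members, *Arg1* at 1.98 (adjusted p = 0.0391) and *Mrc1* at 2.53 (adjusted p = 0.048). In that fit 1492 of 14849 genes were called, and the DN library left out was the highest DN library for both members. Between genotypes in DN cells *Arg1* was at -3.68 ± 0.99 and *Mrc1* at -4.26 ± 1.28 (Cdh2-cKO minus WT, adjusted p = 0.192 and 0.194). The 12 macrophage identity genes had a median of -3.67 in the same comparison. DESeq2 called 6 members and 522 of 15043 genes there, with an adjusted p of 0.0033 for *Arg1* and 0.005 for *Mrc1*. Without WT DN replicate 3 the edgeR values of *Arg1* and *Mrc1* were -1.26 and -1.06 with an adjusted p of 1.

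Paralogs and other genes that share sequence can take reads of a member. Of the 1629 different stretches of 50 bases in the transcripts of *Chil3*, 26.9% also occur in other genes, chiefly *Chil4*. *Chil4* did not exceed 1.37 normalized CPM, where *Chil3* was at 1280. Of the *Folr2* stretches 52.6% are shared with *Gm10602*, which RefSeq lists as a long noncoding RNA. Stretches were matched on either strand, and the part of *Gm10602* in the level of *Folr2* was not tested. For the other 8 members at most 0.109% were shared. *Mrc1* also overlaps *Mir511* on the same strand.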

How the data were processed

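RNA from 22 libraries of sorted tumor stromal cells had been amplified with the SMARTer kit and sequenced. Per the labels, STAR 2.0.4b, Subread, featureCounts 1.45 and build GRCm38 were used by the authors to make the files. The values tested are the deposited counts of reads per Ensembl gene, which are whole numbers and not normalized. The deposited CPM and RPKM, which the authors computed from those counts, the library total and the exonic length, were checked against the counts and not tested. Groups came from the labels. After 355 rRNA genes were removed, a gene was kept if it passed 1 CPM in 2 libraries or more. All 22 libraries were fitted in edgeR 4.0.16 (R 4.3.3) with TMM factors, 8 group means and the quasi-likelihood test, with Benjamini-Hochberg adjustment over 15043 genes, a call at 0.05 and no fold threshold. The script was tested on simulated data. Alternatives were voomWithQualityWeights (limma 3.58.1), DESeq2 1.42.0, RLE factors, no filter, a log2 fold change of at least 2, the CD45+ libraries alone, scaling to macrophage identity counts, a replicate block, and leaving out libraries. A term for Y-linked transcripts, and leaving out both CD45SP replicate 2 libraries, were chosen after seeing the data. The members and lists were chosen with earlier results of these data known. Named genes are the members, *Ptprc* and *Cdh2*, the 2 genes of each list with the largest absolute log2 fold change between DP and CD45SP cells, paralogs that can share reads, and for each member the 3 genes of highest r. *Ddx3y* and the list genes named for CD45+ against CD45- cells were chosen after their values were seen. Libraries of a group differed by at least 47.5 times the counting variance. Each was treated as a replicate, though this spread cannot show that libraries come from different animals. Motif windows and positions are on GRCm38.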

Additional observations from a re-analysis of the deposited data

How the results depend on the processing

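Members gave more than 3 counts in each library, apart from *Retnla* in Cdh2-cKO DN replicates 2 and 3, so groups of 2 or 3 libraries and their uneven cell content limit the comparisons more than depth. The count of members called was 0 of 10 in each fit run for DP against CD45SP cells (both genotypes, WT, Cdh2-cKO and their difference) and between genotypes in DP, CD45SP and TdTSP cells. It was between 7 and 9 for CD45+ against CD45- cells, 8 of them without both CD45SP replicates 2. For TdTSP against DN cells it was 2 without WT CD45SP replicate 2 and WT DN replicate 3, and between 0 and 1 over fits that omit 1 library (1 without WT DN replicate 3). For genotypes in DN cells it was 6 with DESeq2 and between 0 and 6 over fits that omit 1 library (6 without WT DN replicate 1). The causes were not tested. Without WT CD45SP replicate 2 and WT DN replicate 3, 16 of 100 values (10 members in 10 comparisons) changed sign. Sign changes among log2 fold changes that the text names include the following. Without those 2 libraries, *Chil3* was at 0.02 (DP against CD45SP) and *Retnla* at 1.27 in WT libraries. The difference of *Retnla* between genotypes (DP against CD45SP) was then -2.97. Without both CD45SP replicates 2, which was chosen after seeing the data, *Nos2* (DP against CD45SP) was at 0.51 and *Retnla* in WT libraries at 1.25. In that fit the difference of *Retnla* between genotypes was -3.33. With voom, *Retnla* in WT libraries was at 0.85 and *Gpnmb* (CD45+ against CD45-) at 0.11. In the CD45+ libraries alone *Trem2* was at 0.002. Scaled to macrophage identity counts, *Il10* was at -0.23, and the genotype differences in CD45SP cells were -0.35 for *Arg1*, -0.25 for *Mrc1* and -0.18 for *Gpnmb*. On that scale WT CD45SP replicate 2 was the highest CD45SP library for *Arg1*, *Mrc1* and *Gpnmb*. With the Y-linked term, *Trem2* was at 0.11, and *Arg1* and *Mrc1* (genotypes, CD45SP) at -0.12 and -0.30. Over fits that omit 1 library the DP minus CD45SP values ran from -0.73 to 0.43 for *Cd163*, -0.43 to 0.22 for *Folr2*, -0.80 to 0.022 for *Chil3*, -0.13 to 0.53 for *Il10*, -0.23 to 0.15 for *Trem2* and -3.454 to 1.254 for *Retnla* in WT libraries. *Gpnmb* (CD45+ against CD45-) ran from -0.24 to 0.51, and TdTSP minus DN from -0.59 to 1.98 for *Arg1* and -1.11 to 2.52 for *Mrc1* (lowest without WT TdTSP replicate 2). Genes called for TdTSP against DN cells numbered 295, but 986 with DESeq2, 710 with voom, 111 with no filter, 37 with a log2 fold change of at least 2, 192 with the block, 1492 without the 2 libraries, 559 without both CD45SP replicates 2, and between 30 (without Cdh2-cKO TdTSP replicate 2) and 866 (without WT DN replicate 3) over fits that omit 1 library. For genotypes in DN cells they numbered 0, but 522 with DESeq2 and up to 592 without 1 library (WT DN replicate 1). Replicate numbers did not meet the rule for pairing, which asks for a correlation above 0.1 in every pair: of 30 pairs of libraries with the same number 10 had deviations correlated above 0.1, and in 13 of 30 matchings of a library with another population its own number correlated best. Same-numbered libraries were alike in Y-linked transcripts in 24 of the 30 pairs, the exceptions being the 6 pairs with a CD45SP replicate 2. With the replicate block 9 members were called for CD45+ against CD45- cells and 0 elsewhere, and *Gpnmb* was at 0.057.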
